A study of Mus musculus with 10 samples.

Results

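Integrins are the receptors with which a macrophage holds on to other cells and to the extracellular matrix. The transcripts of 10 integrin subunit genes were compared between macrophages of lung metastases and macrophages of normal lung. The genes were taken by name (Itgal, Itga4, Itga6, Itga9, Itgav, Itgb1, Itgb2, Itgb3, Itgb5 and Itgb7). They are 10 of the 24538 genes in the count tables and 10 of the 27 mouse integrin subunit genes found there, 5 alpha chains and 5 beta chains. The list leaves out Itgam and Itgax, the genes of the sorting markers CD11B and CD11C, whose difference between the groups was set by the sort.

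All mice were wild type C57BL6/J and 8 to 10 weeks old. For the metastasis group, females aged 6 to 8 weeks received the mouse mammary tumour line E0771-LG through the tail vein, and small lung metastases were cut out under a microscope and pooled from 2 to 4 mice. Metastasis-associated macrophages (MAMs) were sorted from these metastases as large (FSC hi) macrophages that were CD45+, MRC1+ and F4/80+, lacked LY6C and were CD11B+ and CD11C-. Resident alveolar macrophages (RAMs) were sorted from normal lungs with the same gates except that they were CD11C+ and CD11B-. There were 5 libraries of each group, 100 bp paired-end, and both groups were digested in the presence of transcription inhibitors. The sort gates and the tissue differ together, so a difference between metastasis and normal lung cannot be told apart from a difference between CD11B+CD11C- and CD11B-CD11C+ macrophages. RNA was measured in bulk, so fewer cells of a type and less RNA per cell cannot be told apart either.

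An integrin is a pair of 1 alpha and 1 beta chain, and the pair decides what the receptor binds. The beta2 chain occurs on leukocytes and pairs with alphaL, alphaM, alphaX or alphaD to bind ICAMs, complement fragments and fibrinogen. The beta1 chain has many partners that bind fibronectin, laminins, VCAM1, osteopontin or tenascin C, and alphaV pairs with several beta chains to bind RGD motifs in fibronectin, vitronectin and the latent form of TGF-beta. Alveolar macrophages live on the airway surface and are known for CD11C and little CD11B, whereas macrophages recruited from blood monocytes carry CD11B.

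Most of the 10 subunits were more abundant in MAMs. All 10 passed the filter on low values (mean FPKM of at least 1 in either group) and were read from a fit of all 11571 genes that passed it. With edgeR's quasi-likelihood test and Benjamini-Hochberg adjustment, 8 were higher in MAMs at an adjusted p under 0.05, 1 was lower (Itgal) and 1 did not pass (Itgb5). Of all genes tested, 28.9% were called higher, 27.3% lower and 56.2% in either direction. Over 2-fold as well, 4 subunits were higher (Itga9, Itgb7, Itgb3 and Itgav) and Itgal was lower, against 15.3% and 15.1% of all genes (30.3% in either direction). The remaining 4 called subunits (Itga6, Itga4, Itgb1 and Itgb2) rose by less than 2-fold. By CPM (described below), the MAM and RAM libraries did not overlap in 6 subunits that were higher in MAMs and in Itgal. Of all genes, 23.7% and 21.2% did not overlap in these directions (44.9% in either). The groups overlapped in Itga6, Itgb3 and Itgb5. By FPKM, Itga6 did not overlap and Itgb2 did. The median log2 fold change of the 10 was 0.66, against -0.02 over all genes tested. No property of the subunits as a set was tested.

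**Figure D1:**
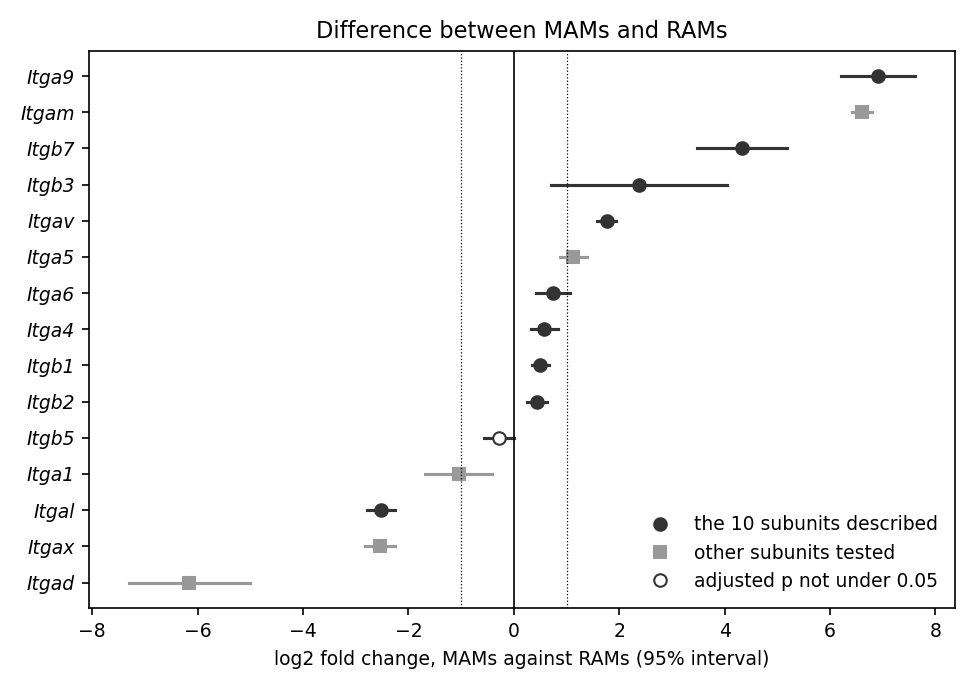
Log2 fold change of MAMs against RAMs with its 95% interval (x axis) for the 15 integrin subunit genes that were tested (y axis), the 10 described here as dark circles and the other 5 as grey squares. An open symbol marks an adjusted p of 0.05 or more, dotted lines mark a 2-fold change, and the changes run from -6.16 for Itgad to 6.92 for Itga9.

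The libraries held 55391447 to 87523247 counts on genes in MAMs and 50746305 to 72150650 in RAMs. Levels are given below as CPM, counts scaled to library size with TMM factors, and as the authors' FPKM where genes are set side by side. Both groups carried all 8 general macrophage markers, with summed levels of 22940 to 29339 CPM in MAMs and 31749 to 38952 CPM in RAMs, most of it Lyz2. Of the 10 alveolar macrophage markers measured, 9 were lower in MAMs (265 to 562 CPM summed, against 9959 to 12757 in RAMs). All 5 monocyte markers were higher (492 to 711 against 14.3 to 21.7 CPM). The shares over all genes tested were 27.3% called lower and 28.9% called higher. The labelled cell types thus carried their markers. Counts in lines that name no gene made up 54.6% to 58.3% of all counts in the MAM libraries and 62.2% to 64.1% in the RAM libraries. They were left out. Most of them were reads assigned to no gene model, at 38.3% to 43.1% of all counts in MAMs and 48.7% to 50.8% in RAMs.

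Promoters are shown for a set of subunits that differ in response, Itgb7, Itgav and Itga4, which were higher in MAMs, and Itgb5, which did not pass. The sequences are the 250 bases before the RefSeq start site (build GRCm38.p6), written on the strand of the gene. Windows were found for 6 of the 10 subunits, those 4 and Itgb1 and Itga9, whose window lies inside the gene as GENCODE draws it and is not shown. Both strands were searched for a PU.1 core (GAGGAA), a RUNX site (TGTGGT), a GC box (GGGCGG), an ISRE core (GAAA, 2 free bases and GAAA) and an AP-1 site (TGANTCA), and capitals mark the matches, which no other match overlapped. The Itgb7 window lies at chr15:102231936-102232185 on the minus strand, Itgav at chr2:83724147-83724396, Itga4 at chr2:79255176-79255425 and Itgb5 at chr16:33829415-33829664, all 3 on the plus strand.
Itgb7: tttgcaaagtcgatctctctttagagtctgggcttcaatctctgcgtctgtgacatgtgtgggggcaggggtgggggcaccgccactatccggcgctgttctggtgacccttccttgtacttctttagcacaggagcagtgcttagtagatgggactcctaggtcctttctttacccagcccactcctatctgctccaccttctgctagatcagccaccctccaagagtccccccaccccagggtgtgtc
Itgav: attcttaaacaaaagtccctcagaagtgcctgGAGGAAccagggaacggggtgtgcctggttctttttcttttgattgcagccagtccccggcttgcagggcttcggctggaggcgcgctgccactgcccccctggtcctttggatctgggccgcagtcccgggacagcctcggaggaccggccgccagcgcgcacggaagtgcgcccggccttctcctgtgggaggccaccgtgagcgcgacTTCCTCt
Itga4: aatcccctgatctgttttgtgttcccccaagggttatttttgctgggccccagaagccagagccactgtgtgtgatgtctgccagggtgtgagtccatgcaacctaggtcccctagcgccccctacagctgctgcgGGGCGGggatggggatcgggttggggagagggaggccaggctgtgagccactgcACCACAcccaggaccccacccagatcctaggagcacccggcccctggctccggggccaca
Itgb5: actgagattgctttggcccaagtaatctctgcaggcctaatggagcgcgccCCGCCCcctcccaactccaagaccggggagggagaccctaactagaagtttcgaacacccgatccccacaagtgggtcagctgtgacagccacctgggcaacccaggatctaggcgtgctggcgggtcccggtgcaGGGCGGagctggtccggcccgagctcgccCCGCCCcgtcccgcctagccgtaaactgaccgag
The Itgav window held 2 PU.1 cores, the second of them on the opposite strand and ending 2 bases before the start site. A PU.1 core was present in 23.4% of all 32536 promoter windows of this length, and the Itgb1 window held 1. The Itga4 window held a GC box and a RUNX match on the opposite strand, and the Itgb5 window held 3 GC boxes. GC boxes were present in 33.0% and RUNX matches in 14.0% of all windows. None of the 5 motifs was found in the Itgb7 window, and ISRE cores (2.98% of all windows) and AP-1 sites (6.73%) were found in none of the 6. These matches describe letters in a window and not binding.

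The leukocyte chains of the beta2 family moved in opposite directions. Itgb2 encodes the common beta2 chain (CD18) and lies at chr10:77530252-77565708. Its level in the 5 MAM libraries was 2929, 2723, 2287, 2107 and 2439 CPM (replicates 1 to 5), and in the 5 RAM libraries 1761, 1740, 1826, 1813 and 2098 CPM. The lowest MAM library, replicate 4, stood just above the highest RAM library, replicate 5, so the groups did not overlap by CPM, although they did by FPKM. Itgb2 was 1.35-fold higher in MAMs (log2 fold change 0.43, SE 0.0883, edgeR adjusted p = 6.3e-04). It was the most abundant of the 10 subunits per transcript length in both groups, at 908 ± 114 FPKM in MAMs and 698 ± 59.3 FPKM in RAMs (SD, n = 5).

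Itgal encodes the alphaL chain (CD11A), which forms LFA-1 with beta2 and binds ICAM1 and ICAM2 on other cells. It spans chr7:127296260-127335138, with 32 merged exons. In MAMs the libraries held 154.1, 102.6, 126.5, 105.9 and 92.0 CPM of Itgal, and the RAM libraries 709, 628, 663, 647 and 689 CPM. Every RAM library was above every MAM library, and the nearest 2 libraries of the groups lay 4.08-fold apart. Itgal was 5.74-fold lower in MAMs (log2 fold change -2.52, SE 0.122, edgeR adjusted p = 1.3e-10), the only one of the 10 called lower. In RAMs it was the second most abundant of the 10 by FPKM (132 ± 4.70, SD, n = 5), above Itgb1, and in MAMs it was the seventh (22.6 ± 4.56).

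The other alpha partners of beta2 are background to this result. Itgam was higher in MAMs (log2 fold change 6.61) and Itgax lower (-2.54), which the sort by CD11B and CD11C set. Itgad, the alphaD chain, was not used in the sort and was at 6.89 to 26.5 CPM in RAMs and 0.067 to 0.468 CPM in MAMs (log2 fold change -6.16, edgeR adjusted p = 1.3e-07). The MAM libraries held 3 to 23 counts of it, 1.38% of the RAM level. Among the 80 genes with a mean over 1000 CPM in RAMs, the lowest MAM level was 1.075% of the RAM level (Plet1). After 1% of the RAM level was subtracted, 0 to 14 counts of Itgad remained per MAM library. Whether these reads came from MAMs was not tested. The 4 alpha chain genes lie on chromosome 7, with 728 kb between Itgal and Itgam, 11 kb between Itgam and Itgax and 4 kb between Itgax and Itgad. Itgam shares 3450 exonic bases with an overlapping gene model (Gm49368) on the same strand, and Itgad shares bases with 4 others.

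Itgal is also a lymphocyte gene. The 12 lymphocyte markers summed to 257 to 330 CPM in RAMs and 25.3 to 40.5 CPM in MAMs, the same direction as Itgal. Cd2 alone held 253 to 309 CPM of the sum in RAMs. The chains of the T cell receptor complex were near 0 in RAMs, at most 0.676 CPM for Cd3d, 2.72 for Cd3e and 0.917 for Cd3g. The part of lymphocyte RNA in the Itgal difference was not tested.

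The largest differences among the 10 were those of alpha9 and beta7. Itga9 encodes the alpha9 chain, which pairs with beta1 and binds tenascin C, VCAM1 and osteopontin, and lies at chr9:118606690-118901003. Itga9 was at 69.5, 81.9, 157, 188 and 97.3 CPM in the MAM libraries, and at 0.908, 0.841, 0.663, 1.36 and 1.17 CPM in the RAM libraries (32 to 65 counts each). The lowest MAM library was above the highest RAM library by 51.2-fold, and MAM replicates 3 and 4 were highest. The fitted difference was 121-fold (log2 fold change 6.92, SE 0.329, edgeR adjusted p = 1.0e-10), rank 81 from the highest among the 11571 genes tested.

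The low RAM level of Itga9 has to be read beside the lowest level that abundant genes showed. It was 0.831% of the MAM level. Among the 115 genes with a mean over 1000 CPM in MAMs, the lowest RAM level was 0.912% of the MAM level (C1qb) and the tenth lowest 1.11%. After 1% of the MAM level was subtracted from each RAM library, 0 to 8 counts of Itga9 remained per RAM library. Whether these reads came from RAMs was not tested, and the size of the fold rests on them. Some markers of other cells were also higher in MAMs. Of 3 platelet markers tested, 2 were called higher (Pf4 and Ppbp), and of 5 neutrophil markers tested, 4 were. Over all genes tested, 28.9% were called higher. The summed neutrophil markers overlapped between the groups, at 144 to 304 CPM in MAMs and 106 to 164 CPM in RAMs. Both lists are described below. Endothelial and stromal markers summed to 41.7 to 95.7 CPM in MAMs and 2.17 to 14.1 CPM in RAMs, with Kdr the most abundant in MAMs (12.1 to 54.3 CPM). The part of these lists in the Itga9 difference was not tested.

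Itgb7 encodes the beta7 chain, which joins alpha4 in a receptor for MAdCAM1 and VCAM1 and alphaE in a receptor for E-cadherin. It lies at chr15:102215995-102231944 on the minus strand. Itgb7 levels were 73.1, 70.7, 69.1, 86.9 and 64.4 CPM in MAMs and 5.72, 3.17, 2.09, 0.855 and 6.27 CPM in RAMs. The MAM libraries lay close together and all above the RAM libraries, which ranged over 7.33-fold. Itgb7 was 20.1-fold higher in MAMs (log2 fold change 4.33, SE 0.401, edgeR adjusted p = 2.3e-07), and its RAM level was 4.97% of the MAM level. The RAM libraries held 41 to 334 counts of it, and 6 to 291 remained per library after 1% of the MAM level was subtracted. Beta7 is known from lymphocytes too. The 12 lymphocyte markers summed to 25.3 to 40.5 CPM in MAMs and 257 to 330 CPM in RAMs, where most of it was Cd2. In MAMs Cd3e reached at most 3.13 CPM and Cd79a at most 5.83 CPM. The part of lymphocyte RNA in the Itgb7 difference was not tested. Itgae, the other partner of beta7, did not pass the filter and held 0.0098% of alpha chain FPKM in MAMs and 0.065% in RAMs.

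Itga4 encodes alpha4, the chain of VLA-4 that binds VCAM1 and the CS1 stretch of fibronectin. It lies at chr2:79255426-79333123. The MAM libraries held 554, 517, 383, 345 and 391 CPM and the RAM libraries 307, 277, 274, 284 and 323 CPM. All MAM libraries were above all RAM libraries, MAM replicates 1 and 2 farthest. The difference was 1.49-fold (log2 fold change 0.58, SE 0.120, edgeR adjusted p = 7.3e-04). Itga4 shares 1124 exonic bases with Cerkl on the opposite strand, and a strand setting of the counting is not given in the sources used here. Cerkl itself was at 1.36 to 5.53 CPM in MAMs and 1.95 to 5.58 CPM in RAMs, far under Itga4.

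Itgb1 encodes the common beta1 chain and lies at chr8:128685654-128733200. Levels of 675, 629, 583, 547 and 592 CPM in MAMs stood against 387, 436, 435, 409 and 471 CPM in RAMs. The groups did not overlap, and the difference was 1.42-fold (log2 fold change 0.50, SE 0.0758, edgeR adjusted p = 4.2e-05). Itgb1 was second by FPKM in MAMs (127 ± 9.62) and behind Itgb2 and Itgal in RAMs (90.2 ± 6.95; SD, n = 5).

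Itga6 encodes alpha6, a laminin receptor chain that pairs with beta1 or beta4, and lies at chr2:71745616-71858416. The MAM libraries held 64.1, 98.8, 98.0, 120.0 and 100.4 CPM and the RAM libraries 64.3, 56.1, 63.8, 45.6 and 57.8 CPM. MAM replicate 1 lay among the RAM libraries by CPM, and the other 4 lay above them. By FPKM the groups did not overlap (9.65 or more in MAMs, 9.46 or less in RAMs). Itga6 was 1.67-fold higher in MAMs (log2 fold change 0.74, SE 0.147, edgeR adjusted p = 5.2e-04). Its epithelial partner Itgb4 did not pass the filter in these macrophages.

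The RGD-binding chains did not move together. Itgav encodes alphaV and lies at chr2:83724397-83806916. By library, MAMs held 263, 231, 261, 243 and 264 CPM and RAMs 78.6, 65.4, 71.2, 72.8 and 85.3 CPM. The MAM libraries spread by only 1.14-fold from lowest to highest and did not approach the RAM libraries. Itgav was 3.38-fold higher in MAMs (log2 fold change 1.76, SE 0.0851, edgeR adjusted p = 1.3e-10). It shares 634 exonic bases with Gm13684, a transcript on the opposite strand.

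Itgb3 encodes beta3, the partner of alphaV in a receptor for vitronectin and osteopontin and of alphaIIb in the fibrinogen receptor of platelets. It lies at chr11:104608000-104670476. The MAM libraries were at 10.1, 3.28, 15.6, 15.4 and 10.7 CPM and the RAM libraries 1.15, 0.165, 3.11, 0.230 and 6.01 CPM. RAM replicate 5 lay above MAM replicate 2, so the groups overlapped, and the RAM libraries ranged over 36.4-fold on 11 to 282 counts. The difference was 5.19-fold (log2 fold change 2.37, SE 0.780, edgeR adjusted p = 0.0174), with a 95% interval of 0.71 to 4.04 on the log2 scale. Without RAM replicate 5 it was 3.25 on that scale, and it was past the threshold whichever library was left out.

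The sum of the 8 platelet markers was higher in MAMs as well, at 351 to 1048 CPM against 13.8 to 18.2 CPM in RAMs. Nearly all of that sum was Pf4 (274 to 789 CPM in MAMs) and Ppbp (70.8 to 255 CPM), both chemokine genes. The platelet receptor genes were low in both groups. Itga2b, the alphaIIb chain, was at 0.356 to 4.74 CPM (1.13 to 6.38 CPM in RAMs). Gp1ba was at 0.244 to 2.52 CPM (1.07 to 4.55 CPM in RAMs). Gp9 was at 0.014 to 2.85 CPM (0.205 to 1.44 CPM in RAMs). Treml1 had a higher mean in MAMs, at 0.469 to 2.37 CPM (0.149 to 0.565 CPM in RAMs), with overlap. In MAMs Gp6 reached no more than 0.559 CPM and Gp1bb no more than 0.0894 CPM, and neither had a count in RAMs. The part of platelet RNA in the Itgb3 difference was not tested.

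Itgb5 encodes beta5, a partner of alphaV that binds vitronectin and takes part in the uptake of dying cells. It lies at chr16:33829665-33949338. The MAM libraries held 55.6, 58.9, 83.3, 92.0 and 70.2 CPM and the RAM libraries 95, 93.4, 83.2, 83.3 and 83.1 CPM. MAM replicates 3 and 4 lay among the RAM libraries, and the other 3 lay below them. The log2 fold change was -0.28 (95% interval -0.56 to -0.00091, edgeR adjusted p = 0.0817), which did not pass. It passed, as lower in MAMs, without MAM replicate 4 (log2 fold change -0.39, adjusted p = 0.0154). With all libraries it also passed as lower under limma on log2(FPKM + 1) (adjusted p = 0.0275) and log2(FPKM + 0.1) (0.0278), upper-quartile factors (0.0118) and library totals (0.00623), so the side of the threshold depended on 1 library, on the unit and on the scaling.

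**Figure D2:**
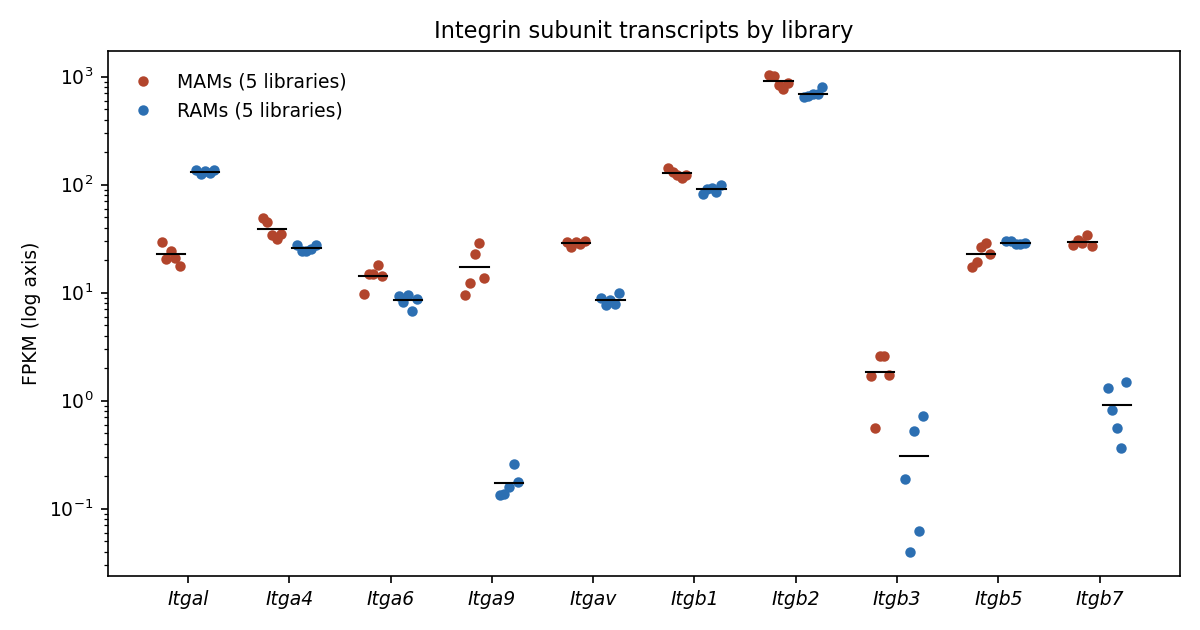
FPKM of the 10 subunits (log axis) in each of the 5 MAM (red) and 5 RAM (blue) libraries, with a bar at each group's mean. Itgb2 lies highest in both groups, Itgal is the one subunit with all MAM libraries below all RAM libraries and a called decrease, and Itga9, Itgb7 and Itgb3 are the 3 with RAM means under 1 FPKM.

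Per transcript length, the order of the 10 subunits differed between the groups. In MAMs the order was Itgb2 (908 FPKM), Itgb1 (127), Itga4 (39.0), Itgb7 (29.7), Itgav (28.7), Itgb5 (22.8), Itgal (22.6), Itga9 (17.4), Itga6 (14.4) and Itgb3 (1.83). From Itga4 to Itga6, each gene overlapped its next neighbour over the 5 libraries. Genes farther apart in the order could be separate: every MAM library had more Itga4 (31.6 FPKM or more) than Itgav (30.0 or less), and more Itgav (26.6 or more) than Itga6 (18.2 or less). In RAMs the order was Itgb2 (698 FPKM), Itgal (132), Itgb1 (90.2), Itgb5 (29.0), Itga4 (25.8), Itgav (8.59), Itga6 (8.50), Itgb7 (0.906), Itgb3 (0.307) and Itga9 (0.172). There, Itgav overlapped Itga6, Itgb7 overlapped Itgb3 and Itgb3 overlapped Itga9, and all other neighbours were separate, as were Itgb7 and Itga9.

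The makeup of the alpha chains followed the sorting markers for the most part, but one subunit outside the sort took a large share as well. Over 18 alpha chain genes, the summed FPKM was 1513 ± 91.0 in MAMs and 459 ± 31.6 in RAMs (SD, n = 5). Itgam held 84.3% of it in MAMs and 2.95% in RAMs, and Itgax 2.51% and 49.6%. Itgal held 28.9% ± 1.37 of the alpha chain transcripts of RAMs and 1.49% ± 0.283 of those of MAMs.

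The remaining alpha chains took smaller shares in both groups. Itga5 held 7.38% ± 1.20 in RAMs and 4.90% ± 0.446 in MAMs. Itga4 held 5.63% ± 0.120 in RAMs and 2.56% ± 0.360 in MAMs, and Itga6 1.86% ± 0.271 and 0.956% ± 0.231, smaller shares of a larger MAM total although both transcripts were more abundant in MAMs. Itga9 held 0.0377% ± 0.0114 in RAMs and 1.17% ± 0.587 in MAMs. Itgav held 1.87% ± 0.104 in RAMs and 1.90% ± 0.175 in MAMs, and these overlapped. No share was tested, since all shares move when 1 large one does.

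The makeup of the 9 beta chain genes was alike in its large parts. Their summed FPKM was 1089 ± 116 in MAMs and 818 ± 65.1 in RAMs (SD, n = 5). Itgb2 held 83.2% ± 1.65 in MAMs and 85.2% ± 0.660 in RAMs, and Itgb1 11.7% ± 0.480 and 11.04% ± 0.495, and both overlapped between the groups. Itgb7 held 2.76% ± 0.507 in MAMs and 0.110% ± 0.0551 in RAMs, and Itgb5 2.15% ± 0.672 and 3.56% ± 0.327, neither with overlap. Itgb3 held 0.175% and 0.0361%, with overlap.

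**Figure D3:**
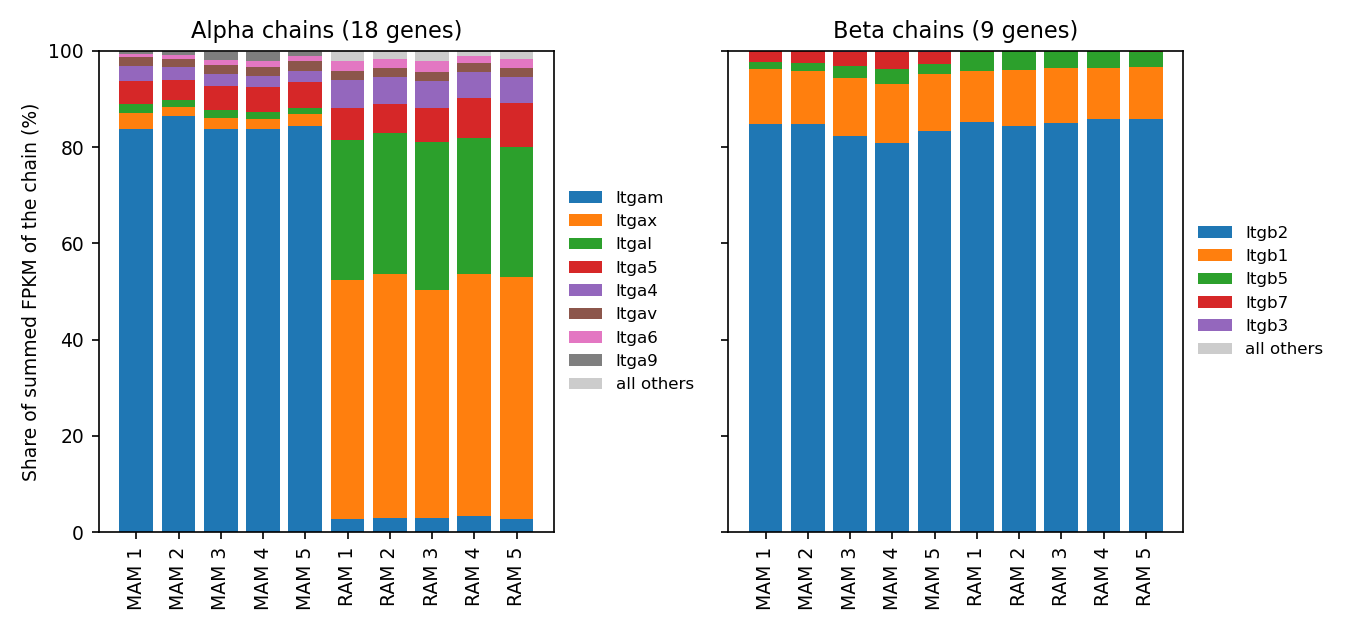
Share of each gene in the summed FPKM of 18 alpha chain genes (left) and 9 beta chain genes (right), in percent, with 1 bar per library. In the alpha panel Itgam makes up most of each MAM bar and Itgax and Itgal most of each RAM bar, and in the beta panel Itgb2 and Itgb1 make up most of every bar.

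Ratios of partner chains within a library show which pairs shifted. The log2 ratio of Itgal to Itgb2 was -5.34 ± 0.258 in MAMs and -2.40 ± 0.114 in RAMs, so beta2 transcripts exceeded alphaL transcripts by 40.6-fold and 5.26-fold. The ratio of Itga4 to Itgb1 (VLA-4) was -1.73 ± 0.173 and -1.80 ± 0.147, and that of Itga6 to Itgb1 was -3.17 ± 0.435 and -3.41 ± 0.218, and in both the groups overlapped. The ratio of Itga4 to Itgb7 was 0.38 ± 0.349 in MAMs and 5.01 ± 0.770 in RAMs. By FPKM, alpha4 transcripts thus exceeded beta7 transcripts by 1.30-fold in MAMs and 32.3-fold in RAMs. The RAM value depends on the unit and on few Itgb7 counts. Mean Itgb7 was 29.7 FPKM in MAMs and 0.906 in RAMs, a wider gap than by CPM (72.8 and 3.62).

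For alphaV the ratios turned for 1 partner. Itgav was 3.38-fold under Itgb5 in RAMs (log2 ratio -1.76 ± 0.160) and 1.28-fold over it in MAMs (0.35 ± 0.306), without overlap. Itgav to Itgb1 went from -3.40 ± 0.148 in RAMs to -2.15 ± 0.128 in MAMs. Itgav to Itgb3 was 5.59 ± 1.71 in RAMs and 4.15 ± 0.861 in MAMs, with overlap. Itga9 to Itgb1 was -2.99 ± 0.753 in MAMs and -9.07 ± 0.404 in RAMs, where the Itga9 level is subject to the limit given above. Values after ± are SDs over 5 libraries, the ratios were not tested, and transcripts do not give the amount of a receptor on the surface.

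**Figure D4:**
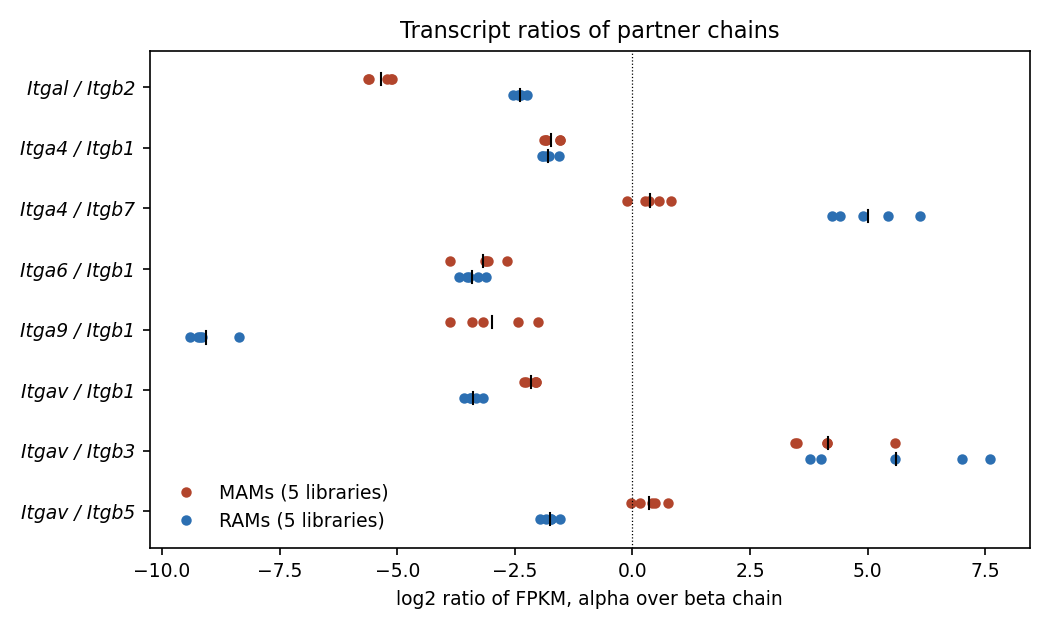
Log2 ratio of the FPKM of an alpha chain to that of a beta chain it can pair with (x axis), for 8 pairs (y axis), in each MAM (red) and RAM (blue) library, with a tick at the group mean. The groups lie apart for Itgal to Itgb2, Itga4 to Itgb7, Itga9 to Itgb1, Itgav to Itgb1 and Itgav to Itgb5, and overlap for the other 3.

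The MAM libraries differed among themselves in an ordered way, a pattern singled out after its values were seen. By Itga9 they ran, from lowest to highest, replicate 1, 2, 5, 3 and 4. Itgb5 had the same order, and Itga4, Itgb1 and Itgb2 had exactly the opposite order, so 4 of the other 9 subunits followed it forward or backward. The share of all genes with this order or its opposite was not counted, so the pattern cannot be called particular to integrins. Replicates 1 and 4, the ends of the order, were also the MAM libraries that differed most from each other over the genes as a whole. The remaining 5 had other orders. From the first to the last library of that order Itga9 went from 69.5 to 188 CPM, Itga4 from 554 to 345 CPM and Itgb2 from 2929 to 2107 CPM. In the RAM libraries the 5 subunits kept no such common order.

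Of the 10 marker lists, 1 had this order and the other 9 did not, nor did any have its opposite. The summed neutrophil markers had the order of Itga9, at 144, 177, 229, 304 and 222 CPM in MAM replicates 1 to 5, and most of the sum was Csf3r (98.5 to 210 CPM), which monocytes also express. Of the other 7 markers, Mmp8 was at 18.4 to 64.7 CPM in MAMs (40.3 to 83.2 CPM in RAMs) and Mmp9 at 11.5 to 31.1 CPM (at most 0.582 CPM in RAMs), while in MAMs S100a9 was at most 10.1 CPM, S100a8 at most 7.58, Ly6g at most 1.48, Camp at most 0.776 and Retnlg at most 0.235 CPM. The summed ligand genes, mostly Fn1, had the opposite order (14459, 13056, 10501, 8603 and 10605 CPM). The part of the other cells, or of the mix of macrophages within the sort gate, in this pattern was not tested.

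**Figure D5:**
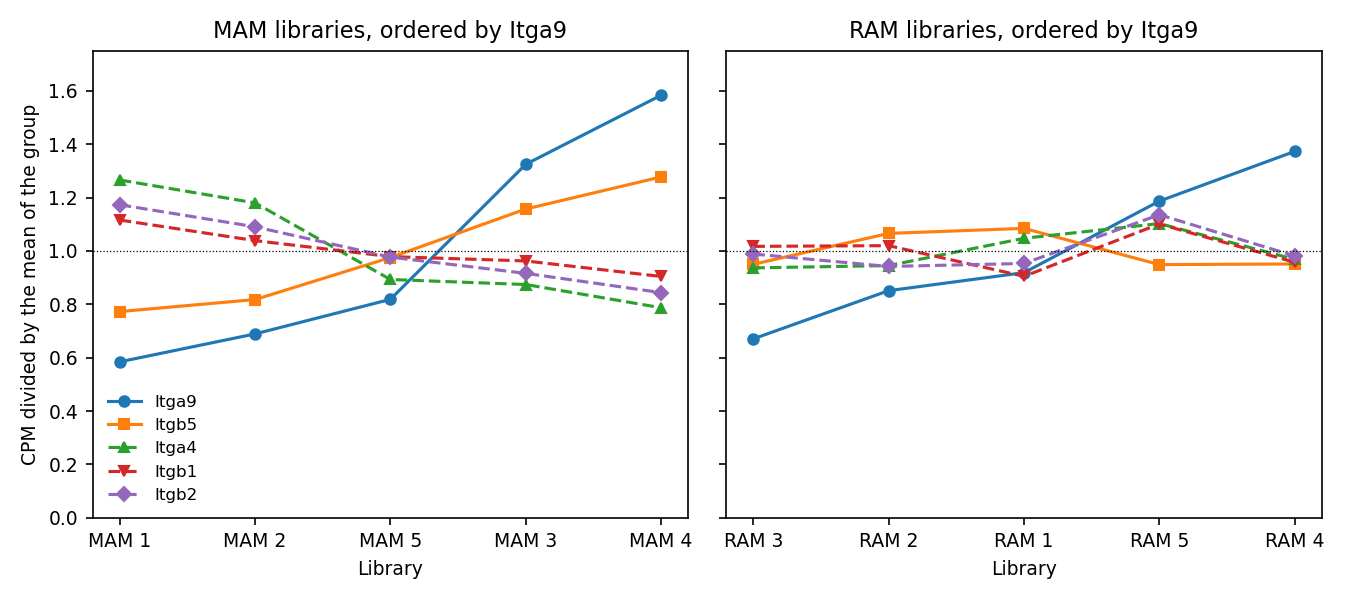
CPM of 5 subunits divided by the mean of the group (y axis) in the MAM (left) and RAM (right) libraries, each panel ordered by Itga9 (x axis). In the MAM panel Itgb5 climbs with Itga9 while Itga4, Itgb1 and Itgb2 go down, and in the RAM panel the lines cross.

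The sorted macrophages also differed in transcripts for integrin ligands, more of them higher than lower in MAMs. Of 30 listed ligand and counter-receptor genes, 17 were tested, of which 11 were higher in MAMs, 4 lower and 2 did not pass (median log2 fold change 2.31). Over all genes tested, 28.9% were called higher and 27.3% lower, so the share of ligand genes called lower was near the background. Among the 3 highest, Thbs1, a matrix glycoprotein that binds several integrins, was at 2488 to 2968 CPM in MAMs and 22.6 to 28.6 CPM in RAMs (log2 fold change 6.74), a RAM level of 0.938% that lies at the lowest level of abundant genes. Vcam1, a ligand of alpha4beta1 and alpha9beta1, was at 15.9 to 33.5 CPM in MAMs and 0.068 to 1.61 CPM in RAMs (log2 fold change 5.16, edgeR adjusted p = 1.6e-06). Tnc, which encodes tenascin C, was at 0.346 to 19.8 CPM in MAMs, and with 1 or 2 counts in each RAM library no fold is given.

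The 3 lowest ligand genes were cell contact and platelet ligands. Cdh1, which encodes E-cadherin, was at 107 to 150.3 CPM in RAMs and 1.83 to 11.2 CPM in MAMs (log2 fold change -4.65). Vwf, the carrier of coagulation factor VIII and a ligand of beta3 integrins, had a log2 fold change of -2.97, and F11r, which encodes the junction protein JAM-A, a ligand of LFA-1, one of -2.92. The summed epithelial and tumour cell markers were also higher in RAMs, at 462 to 602 CPM against 7.56 to 23.2 CPM in MAMs. In RAMs nearly all of it was Krt19 and Epcam, while the surfactant gene Sftpc was at 6.74 to 22.6 CPM. Of 6 tested, 5 were lower in MAMs (27.3% of all genes were) and Krt18 did not pass. Krt8, Krt18 and Krt7 had higher means in MAMs (1.48, 1.81 and 0.520 CPM) than in RAMs (0.0453, 0.119 and 0.124 CPM). The part of epithelial RNA in the Cdh1 value was not tested.

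Another 3 ligands were looked at after their values were seen. Fn1, which encodes fibronectin, the most abundant ligand transcript in both groups, was at 3588 to 10409 CPM in MAMs and 1285 to 2257 CPM in RAMs (log2 fold change 2.05, edgeR adjusted p = 3.2e-06). Spp1, which encodes osteopontin, was at 445 to 1473 and 184 to 259 CPM (2.31). Icam1, a ligand of LFA-1, was at 88.6 to 133 and 45.8 to 67.7 CPM (0.92), and so was higher in the group in which Itgal was lower.

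Genes that activate integrins, tie them to actin or signal from them were called in both directions. Of 44 listed genes 39 were tested, of which 23 were higher in MAMs (14 over 2-fold), 12 lower (5 over 2-fold) and 4 did not pass. The shares called lower were near those of all genes (27.3%, and 15.1% over 2-fold), against 28.9% and 15.3% of all genes called higher. The median log2 fold change was 0.66, close to that of the 10 subunits and above the -0.02 of all genes. Fyb, which encodes the adaptor ADAP, was at 745 to 1223 CPM in MAMs and 9.71 to 14.8 CPM in RAMs (log2 fold change 6.37, edgeR adjusted p = 1.7e-13), and its RAM level of 1.21% of the MAM level also lies close to the lowest level of abundant genes. Ptk2, which encodes focal adhesion kinase, was at 25.5 to 53.8 and 0.767 to 3.23 CPM (4.79, adjusted p = 3.9e-08). Bcar1, which encodes the scaffold p130Cas, was low in both groups, at 0.206 to 9.59 and 0 to 0.661 CPM, with overlap (4.54, adjusted p = 0.0105). Its log2 fold change was 8.82 without RAM replicate 5, and without MAM replicate 3 it did not pass the filter on low values.

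Lowest in the same list were the tetraspanin gene Cd9 (log2 fold change -3.28), the scaffold gene Nedd9 (-2.57) and the parvin gene Parvg (-1.89). Cd9, whose protein associates with beta1 integrins, was at 85.4 to 121.6 CPM in MAMs and 835 to 1146 CPM in RAMs. Nedd9 belongs to the same family as Bcar1 and moved the other way, from 495 to 568 CPM in RAMs to 70.8 to 110.7 CPM in MAMs.

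Of the 17 other integrin subunit genes, 12 did not pass the filter on low values. The 5 that were tested included 2 higher in MAMs and 3 lower, all over 2-fold, against 15.3% and 15.1% of all genes, and the sort set 2 of these 5. Beside Itgam, Itgax and Itgad, Itga5, the fibronectin receptor chain alpha5, was 2.19-fold higher in MAMs (log2 fold change 1.13, edgeR adjusted p = 7.9e-07). Itga1, a collagen receptor chain, was at 4.90 to 11.8 CPM in MAMs and 9.61 to 23.3 CPM in RAMs, with overlap (log2 fold change -1.05, adjusted p = 0.00676). Itga5 lies on chromosome 15, 1112 kb from Itgb7.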

How the data were processed

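RNA-seq libraries of sorted macrophages were grouped as MAMs (lung metastases, 5 libraries) and RAMs (normal lung, 5 libraries) from the titles and cell type labels. For each library the authors deposited raw counts per gene, made with TopHat2 2.0.13 on mm10 and HTSeq 0.6.1 on UCSC RefGene models from uniquely mapped reads, and for all libraries 1 table of FPKM from Cufflinks 2.2.1, which scales by transcript length and mapped fragments. The strand setting of the counting is not given in the sources used here. The sample records name DESeq2 1.6.3 for the authors' own test, which was not used.

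Counts on genes were used as deposited, and lines that name no gene stayed out of library sizes. The filter kept genes whose average FPKM reached 1 in either group and that had at least 1 count (11571 of 24538). They were tested with edgeR 4.0.16 in R 4.3.3, a quasi-likelihood fit of all 10 libraries with TMM factors (0.898 to 0.943 in MAMs, 1.07 to 1.10 in RAMs), no covariates and Benjamini-Hochberg adjustment over all genes tested. CPM values use the same factors. Calls were made at an adjusted p under 0.05, with a fold change over 2 where stated. Shares and ratios of FPKM were not tested. At these depths a count of 0 allows up to 3 counts, a limit for counting error only, as no molecular identifiers are named for the reads. A sample was 1 mouse or metastases pooled from several mice. No pair of libraries held identical values.

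Named were all 10 subunits, every other integrin subunit tested, the 3 highest and 3 lowest called genes of the ligand and the adhesion lists, and the most abundant gene of each marker list. Other genes were named after their values were seen. The subunits, lists and motifs were chosen from general knowledge with earlier results of these data known. Of the marker lists not described with the results, dendritic cell markers summed to 3.31 to 8.30 CPM in MAMs and 17.0 to 25.4 CPM in RAMs (most abundant Zbtb46 and Clec9a), and mast cell and eosinophil markers to 0.122 to 5.54 and 0.0414 to 0.647 CPM (Ccr3 and Cpa3). The most abundant monocyte gene was Ccr2 in both groups, and the most abundant alveolar genes were Marco in MAMs and Chil3 in RAMs. The most abundant endothelial gene in RAMs was Cdh5, and Flna led the adhesion list in both groups.

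Alternatives were DESeq2 1.42.0, RLE, upper-quartile and no scaling factors, edgeR's filterByExpr, no filter, a replicate block, limma 3.58.1 on log2(FPKM + 1) and log2(FPKM + 0.1), counts per kilobase for shares and ratios, and each library left out. A fit after subtracting 1% of the other group's mean level was added after seeing the data. On simulated data with 200 of 11571 genes changed, equally up and down, edgeR recovered 90% of the 4-fold and 64% of the 2-fold changes with 7 false calls. In the measured data 6504 genes (56.2%) were called. The simulation therefore does not show the error from scaling where so many genes differ. Positions are those of GENCODE M21 (GRCm38, the same build as mm10), promoters those of RefSeq (GRCm38.p6). Python 3.11.15 with matplotlib 3.10.9 drew the figures.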

Additional observations from a re-analysis of the deposited data

Results flagged for a closer look

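In 30 groups of 5 libraries (15 integrin subunits tested, CPM in MAMs and in RAMs), 2 held a library far from the other 4, where chance gives about 1 in 20. Itgb2 in RAM replicate 5 was at 2098 CPM, with the nearest RAM library at 1826 CPM and a gap of 0.76 of the range of the group. That library was the RAM library closest to the MAMs for Itgb2, and the log2 fold change of Itgb2 stayed between 0.37 and 0.49 whichever library was left out. Itgax in MAM replicate 1 was at 240.0 CPM, with the nearest MAM library at 162.6 CPM and a gap of 0.811 of the range.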

How the results depend on the processing

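The calls of 9 of the 10 subunits were the same under all 20 alternatives, the 1 added after seeing the data included, and no called result reversed. Itgb5 passed as lower in 5 of them, which made the number of subunits called lower 2 in place of 1. These were upper-quartile factors (log2 fold change -0.44, adjusted p = 0.0118), library totals alone (-0.50, 0.00623), limma on log2(FPKM + 1) (-0.35, 0.0275) and on log2(FPKM + 0.1) (-0.37, 0.0278), and the fit without MAM replicate 4 (-0.39, 0.0154). Over all alternatives the log2 fold change of Itgb5 ran from -0.50 to -0.20. Upper-quartile factors and library totals moved the median of all genes by -0.16 and -0.23, so the moves of Itgb5 under these 2 scalings were those of all genes. The cause of the other moves was not tested. With libraries left out in turn, 1 to 2 subunits were called lower and 8 higher each time. Under filterByExpr, 4 other integrin subunits were called higher in place of 2, since more genes were tested. Itga9 ran from 3.87 (limma with a pseudocount of 1, which shrinks low values) to 11.85 (1% subtracted, which leaves RAM libraries at or near 0). Itgb7 ran from 4.04 to 5.03 and Itgb3 from 1.08 to 3.25. The 4 subunits called under 2-fold were lowest with library totals. Itga4 ran from 0.35 to 0.65, Itga6 from 0.52 to 0.86 and Itgb1 from 0.27 to 0.54. Itgb2 ran from 0.21 (edgeR adjusted p = 0.0351) to 0.49. The share of Itgav in alpha chains, MAMs minus RAMs, was 0.034 percentage points by FPKM and -0.145 by counts per kilobase of exon, a change of sign of a difference whose groups overlapped by FPKM. It ran from -0.0042 to 0.102 with 1 library left out. Replicate numbers did not pair the libraries (correlations of same-numbered deviations of -0.0196 to 0.0342 over 8556 genes, and 1 of 10 libraries correlated best with its own number). With a replicate block, Itgal was at -2.54, Itga9 at 6.83, Itgb7 at 4.55, Itgb3 at 3.20 and Itgb5 at -0.31, 3205 genes were called higher and 3100 lower, and no subunit's call changed. Low counts limit Itga9, Itgb3 and Itgb7 in RAMs, where libraries held 11 to 334 counts, and Itgad in MAMs, where they held 3 to 23.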
